A study of Poecilia mexicana x Poecilia latipinna and Poecilia formosa with 28 samples.

Results

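The genes described here had less messenger RNA in the liver of a clonal fish than in the liver of hybrids made from the same pair of parent species. In brain and ovary of the same animals their levels differed far less. They were chosen by their measured values. Counts were divided by the total of their library and scaled to a common total of 1000000 (CPM), and the ratio of a gene was the hybrid mean plus 0.1 over the clone mean plus 0.1. A gene was kept when its hybrid liver mean was at least 1 CPM, its lowest hybrid liver lay above its highest clone liver, its liver ratio was at least 2.5, and its brain and ovary ratios both lay between 0.67 and 1.5. Of the 31997 genes in the count table, 446 met the rule, and the 300 with the largest liver ratio were taken as members.

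Poecilia formosa, known as the Amazon molly, consists of females and arose by hybridization. It reproduces clonally: sperm of a related host species starts the development of the eggs, but the father's genes are as a rule not passed on. Its parental species are held to be relatives of today's Poecilia mexicana and Poecilia latipinna. The liver makes plasma proteins, handles fats, sugars and nitrogen, and in egg-bearing fish supplies much of the material of the yolk.

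The study sequenced messenger RNA of 4 females of 1 P. formosa clone and of 6 females of 1 brood of F1 interspecies hybrids. The clone was founded from wild fish of Ciudad Mante in Mexico and had been kept in aquaria for about 70 generations. The hybrids came from 1 virgin P. mexicana female and 1 P. latipinna male, whose stocks originated from Laguna Champaxan. All fish were females aged 3 months, untreated, matched in size and raised alike. The clone is a single lineage and the hybrids a single sibship, so the spread between fish covers 1 clone and 1 brood and not other clones or crosses. There were 4 clone and 6 hybrid libraries of brain, 4 and 6 of liver, and 4 and 4 of ovary, since no ovary of hybrids 11 and 14 was analysed here. Total counts per library ran from 32460110 to 46316691. The table gives numeric gene IDs without names, so no function is stated for any member, no sequence is shown, and the labelled organs were not checked against marker genes.

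As the members were chosen on the difference between the genotypes, their levels in the clone and the hybrids are given as a description, without a test. Among the 12819 genes with a hybrid liver mean of at least 1 CPM, 1751 had every hybrid liver above every clone liver (13.7%), and 608 of these also had a liver ratio of at least 2.5 (4.74% of the 12819). The median member stood at 22.1 CPM in hybrid liver and 5.46 CPM in clone liver. The median liver ratio of the members was 3.75, with quartiles of 3.12 and 4.87, where the median over the 12819 genes was 0.995. A ratio of at least 5 was reached by 68 members, of at least 10 by 14 and of at least 20 by 3. In bulk tissue such as this, fewer cells that carry a transcript and less of it in each cell cannot be told apart.

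**Figure D1:**
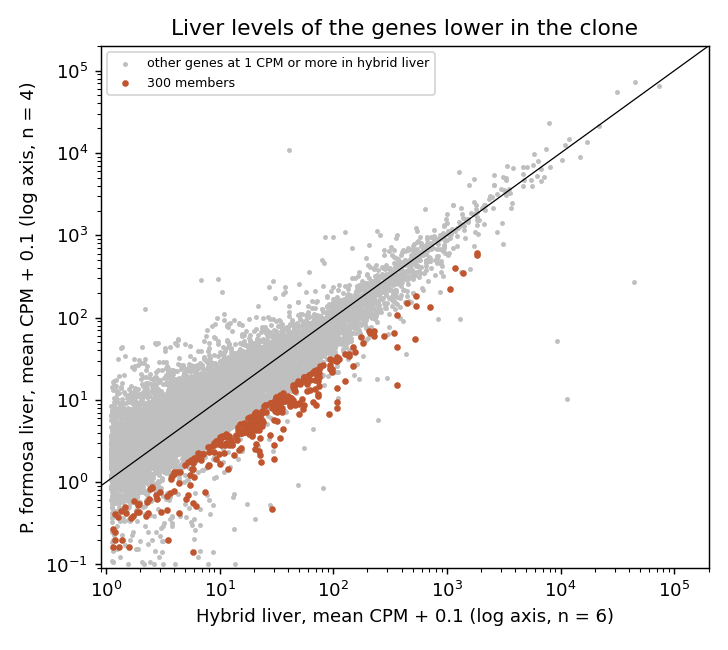
Mean liver level of each gene with at least 1 CPM in hybrid liver, hybrids on the x axis (6 livers) and P. formosa on the y axis (4 livers), both as CPM + 0.1 on log axes, with the line of equal levels. The 300 members, in colour, lie below the line from about 1 CPM up to 1846 CPM in hybrid liver.

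The members lay close together at the edges of the rule. The last 3 genes kept had liver ratios of 2.892, 2.891 and 2.890, and the next 3 had 2.888, 2.887 and 2.887. The smallest gap was seen in a member whose lowest hybrid liver was 1.03 times its highest clone liver. Another 56 genes passed every other step, with ratios at least as large as the last member, but had overlapping livers. The 3 highest brain ratios inside the limit were 1.49, 1.48 and 1.46, and the nearest outside were 1.53, 1.61 and 1.62. The 3 lowest ovary ratios inside were 0.674, 0.694 and 0.694, and the nearest outside were 0.654, 0.653 and 0.642. The 3 members with the lowest hybrid liver means stood at 1.06, 1.07 and 1.10 CPM.

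The largest liver ratio, 60.9, belonged to gene 103140041. Its level in the clone livers was 0.208 CPM in fish 3, 0.927 in fish 4, 0.0472 in fish 11 and 0.308 in fish 12. In the 6 hybrid livers it ran from 5.24 CPM through a median of 17.8 to 60.5. Every hybrid liver stood above every clone liver, as the rule required, but hybrids 10 and 12, at 60.5 and 58.8 CPM, were far above hybrid 13 at 5.24. Outside the liver the gene was abundant in both genotypes: 147 ± 32.4 CPM in clone brain (SD, n = 4) and 150 ± 16.2 in hybrid brain (n = 6), 94.4 ± 4.15 in clone ovary (n = 4) and 68.6 ± 9.40 in hybrid ovary (n = 4). All hybrid ovaries (60.2 to 80.7 CPM) lay below all clone ovaries (88.2 to 97.0 CPM), the reverse of the liver order. In the clone the liver level of this gene was therefore close to none beside its brain and ovary levels.

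The member with the second largest ratio, 41.0, had another profile. Gene 103135669 had no count in clone liver 3, and stood at 0.0232, 0.0472 and 0.0949 CPM in clone livers 4, 11 and 12. In hybrid liver it ran from 1.18 CPM through a median of 4.73 to 14.7, with the highest value in hybrid 11. It was scarce in both other organs of both genotypes, at 0.226 ± 0.299 CPM in clone brain (n = 4), 0.335 ± 0.781 in hybrid brain (n = 6), 0.00581 ± 0.0116 in clone ovary (n = 4) and 0.0358 ± 0.0422 in hybrid ovary (n = 4). At such low levels the ratio in ovary rests mostly on the 0.1 added to both means, and the 0.1 weighs on the ratio in brain. The hybrid brain mean rests mostly on hybrid 11, at 1.93 CPM against 0 to 0.0530 in the other hybrid brains.

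The next members by ratio, among those with at least 5 CPM in hybrid liver, are given without IDs. The third by ratio had 21.6, 11.8, 14.1 and 12.1 CPM in clone livers 3, 4, 11 and 12, and ran from 63.2 CPM through a median of 224 to 855 in hybrid liver, a ratio of 24.3. Hybrids 4 and 10 held its highest liver values, 855 and 733 CPM, and its brain levels were 390 ± 32.6 CPM in the clone (n = 4) and 476 ± 43.7 in the hybrids (n = 6). The fourth had 1.84, 1.76, 2.36 and 1.28 CPM in the clone livers and from 22.1 through 28.1 to 43.5 CPM in the hybrid livers, a ratio of 15.9. Here the fish of each group lay close together, and the gap between the groups was wide.

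The fifth member in this order divided the clone. It stood at 12.8 and 16.5 CPM in clone livers 3 and 4 but at 1.49 and 0.830 CPM in clone livers 11 and 12, and it ran from 76.5 through 105 to 169 CPM in hybrid liver (ratio 13.5). The sixth had 13.5 CPM in clone liver 3, 5.26 in fish 4, 4.53 in fish 11 and 3.49 in fish 12, against 62.4 to 114 CPM in hybrid liver (ratio 13.4). In ovary the fifth stood at 52.1 ± 1.22 CPM in the clone and 59.3 ± 2.30 in the hybrids, and the sixth at 46.6 ± 4.10 and 63.0 ± 10.1 (SD, n = 4 each). The groups of ovaries did not overlap for either member, yet the gap was far smaller than in liver. The next 6 members in this order had ratios from 12.9 to 10.4, with hybrid liver means from 5.76 CPM (gene 103141558) to 108 CPM (gene 103137262).

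**Figure D2:**
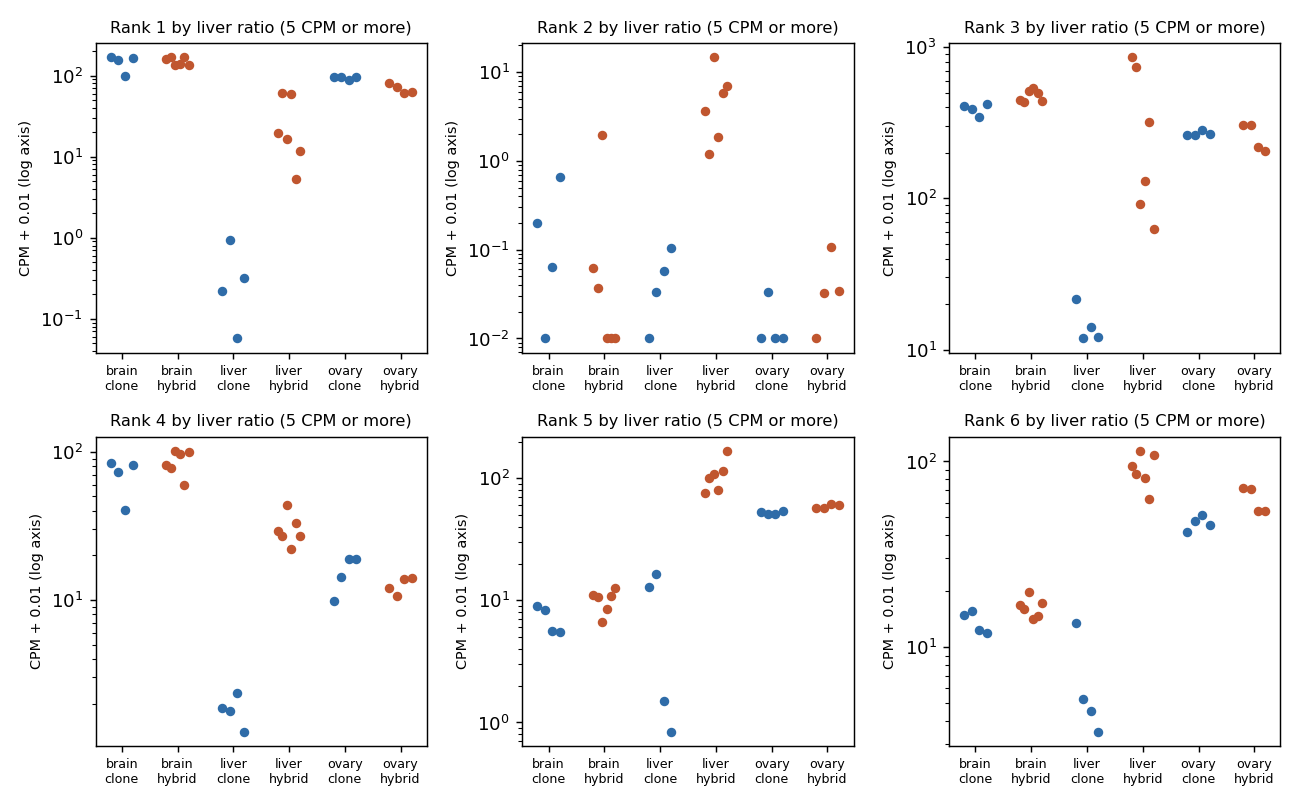
Level of the 6 members with the largest liver ratios among those with at least 5 CPM in hybrid liver, 1 point per library, as CPM + 0.01 on a log axis, with the clone in blue and the hybrids in orange (4 and 6 brains, 4 and 6 livers, 4 and 4 ovaries). In each panel all 6 hybrid livers lie above all 4 clone livers, as the rule required. The brain and the ovary points of the genotypes lie nearer each other except for the scarce member of rank 2. At ranks 1, 5 and 6 the ovaries of the genotypes do not overlap, and at rank 1 the hybrid ovaries are the lower ones.

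The members with the highest and second highest means in hybrid liver had smaller ratios than those above. Gene 103134023 was at 714, 509.6, 604 and 495 CPM in clone livers 3, 4, 11 and 12 and from 1072 through 1854 to 2599 CPM in hybrid livers, a ratio of 3.18. Gene 103133105 was at 651, 629, 586 and 604 CPM in the clone and from 878 through 1696 to 2824 CPM in the hybrids, a ratio of 2.98. The clone livers were close to each other for this gene, at 618 ± 28.3 CPM (SD, n = 4), and the hybrids ranged widely, at 1839 ± 668 (n = 6). Both genes were scarce outside the liver in both genotypes, with means from 0.459 to 1.84 CPM in brain and ovary. The 12 members with the highest hybrid liver means were not alike in the other organs: gene 103141994 had 1384 CPM in hybrid liver and 348 in clone liver, beside 259.8 CPM in hybrid brain and 715 in hybrid ovary. Gene 103137529 had 525 and 54.6 CPM in hybrid and clone liver, beside 4.98 and 3.65 CPM in hybrid brain and ovary. Together the 5 members with the highest hybrid liver means made up 33.5% of the members' summed hybrid liver level, and the leading 20 made up 58.9%.

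Summed over the 300 members, the share of a liver library was 0.566% ± 0.114 in the clone (SD, n = 4) and 2.18% ± 0.189 in the hybrids (n = 6). The clone livers were at 0.722% in fish 3, 0.581% in fish 4, 0.487% in fish 11 and 0.474% in fish 12, and the hybrid livers ran from 1.87% to 2.37%. In ovary the share was 2.13% ± 0.0207 in the clone and 2.23% ± 0.0558 in the hybrids (n = 4 each). In brain it was 0.893% ± 0.0210 (n = 4) and 0.978% ± 0.0223 (n = 6), with every hybrid brain above every clone brain. The members' share of a hybrid liver library was thus similar in size to their share of an ovary library, and their share of a clone liver library was below that of a brain library. The sum is led by few genes. The median member kept the same order of organs, but in hybrid liver it lay well under its ovary level. It was at 5.39 ± 1.47 CPM in clone liver and 21.7 ± 2.76 in hybrid liver, 15.8 ± 0.253 and 16.8 ± 0.461 in brain, and 45.5 ± 0.300 and 45.4 ± 1.01 in ovary. These levels used plain library totals. With TMM factors, which align the bulk of the genes, the members' median log2 difference of liver minus ovary was 1.16 in the hybrids. It was positive for 241 of the 300. Liver minus brain was 0.38 in the clone, positive for 190 of the 295 members tested. The order of liver against the other organs thus depended on the scaling.

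**Figure D3:**
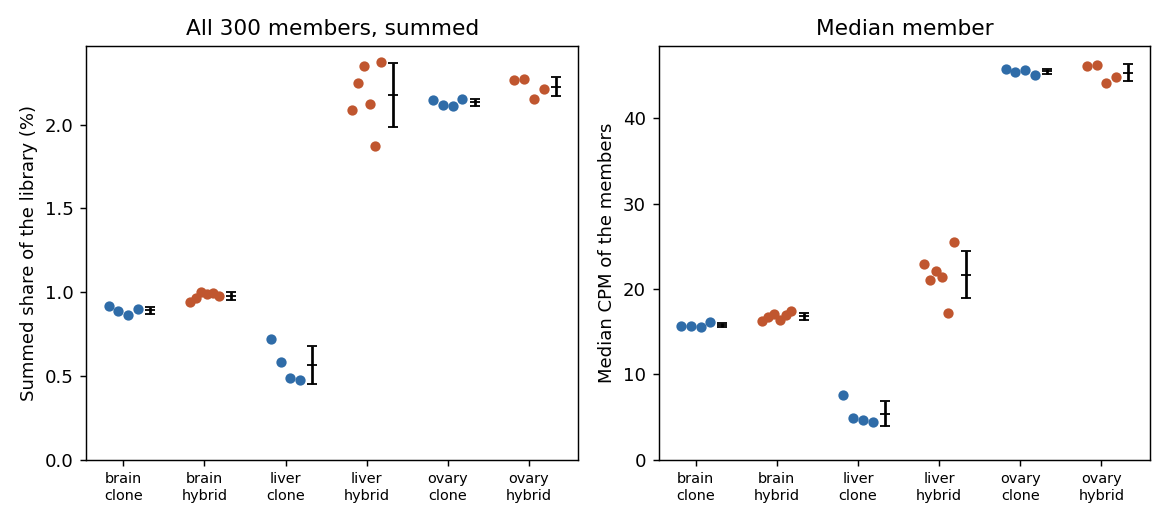
Summed share of the library taken by the 300 members (left, percent) and CPM of the median member (right), 1 point per library, clone in blue and hybrids in orange, with the mean and SD of each group in black. Clone livers lie from 0.474% to 0.722% and hybrid livers from 1.87% to 2.37%. In brain and ovary the genotypes lie far nearer each other. The brains still do not overlap, at 0.867% to 0.916% in the clone and 0.941% to 0.999% in the hybrids.

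Brain and ovary ratios were bounded by the rule, and within these bounds their medians lay slightly above 1. The median brain ratio of the members was 1.07, with 205 members above 1 and 95 below. Over all 12819 genes with at least 1 CPM in hybrid liver it was 0.97, with 5431 above 1 and 7386 below. Most members thus leaned toward the hybrids in brain, and most of these genes did not. The median ovary ratio was 1.05, with 194 above and 106 below, against 1.03 over the same genes, with 7135 above and 5679 below.

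The members' levels also differed between fish of the clone. Clone liver 3 was the highest of the 4 clone livers for 210 of the 300 members (70.0%), against 36.7% of all genes with at least 1 CPM in hybrid liver. Clone liver 4 was the highest for 47 members (15.7%, against 8.58%), clone liver 11 for 29 (9.67%, against 40.2%) and clone liver 12 for 14 (4.67%, against 14.6%). Clone livers 3 and 4 both lay above clone livers 11 and 12 for 126 members (42.0%), against 14.7% of the genes with at least 1 CPM. Clone livers 11 and 12 both lay above clone livers 3 and 4 for 22 members (7.33%), against 34.4%. These counts used plain library totals and liver values that entered the rule, and they describe the order of the clone livers without a test.

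Among the hybrids, liver 14 was the highest for 126 members (42.0%, against 15.5% of the genes with at least 1 CPM), and liver 11 for 78 of the 300 (against 37.9%). Liver 10 was the lowest for 104 members and liver 13 for 101 (34.7% and 33.7%, against 31.0% and 15.4%). The SD between fish was 26.7% of the mean for the median member in hybrid liver and 30.2% in clone liver.

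The library numbers in the labels fall in a lower range, which holds all clone fish and hybrids 4 and 10, and a higher range, which holds hybrids 11 to 14. No label says what the ranges stand for. The rule made no contrast between the ranges, but it used the same 6 hybrid livers and set how low any of them could lie, so the counts that follow are a description and not an independent test. Of the 300 members, 23 were higher and 9 lower in hybrid livers 11 to 14 than in livers 4 and 10, at an adjusted p under 0.05 by edgeR's quasi-likelihood test. Over all 16922 genes tested 4.6% were higher and 5.64% lower, and among genes with at least 1 CPM in hybrid liver 5.84% and 6.66%. The median log2 difference was 0.24 for the members and 0.00 for all genes tested. It was positive for 200 members (66.7%, against 50.2% of all genes tested). Leaving out hybrid 4 or hybrid 10 leaves 1 library in that range, whose spread is then assumed to be that of the other range. In those fits edgeR called far fewer genes, among the members and among all genes tested alike. The counts of those fits enter the ranges over fish left out in the last section, and no conclusion is drawn from them. Without hybrid 14 the number higher was 12 (290 of all 16784 genes tested), and without hybrid 11 it was 38 (1461 of 16691). With all 6 livers the DESeq2 test called 50 members higher and 13 lower, beside 1751 and 1280 of all 31997 genes.

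Gene 103138125 had 2.16 and 1.70 CPM in hybrid livers 4 and 10 and 16.6, 8.29, 8.02 and 7.54 CPM in hybrid livers 11 to 14 (log2 difference 2.36, SE 0.31). It was at 0.300 to 0.874 CPM in the clone livers. Gene 103132791 had 1.19 and 1.02 CPM against 8.40, 4.33, 3.30 and 4.84 (log2 difference 2.20, SE 0.33). In the other direction, gene 103153802 had 32.2 and 61.3 CPM in hybrid livers 4 and 10 and 7.42, 15.2, 8.90 and 8.66 in the others (log2 difference -2.19, SE 0.45). Gene 103141231 had 3.15 and 2.74 CPM against 1.28, 0.541, 0.862 and 0.830 (log2 difference -1.77, SE 0.29). All 4 kept every hybrid liver above every clone liver, as the rule required, and the size of the gap differed between the library ranges.

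Within the lower range alone, with hybrids 4 and 10 against the 4 clone fish, the median liver ratio of the members was 3.42, and 242 of the 300 members had a ratio of at least 2.5 and 280 of at least 2. The lowest was 1.23. With hybrids 11 to 14 in their place the median was 3.85, and 296 members had a ratio of at least 2.5. All clone libraries belong to the lower range, so for the second of these comparisons genotype and range cannot be told apart. The median over all genes with at least 1 CPM in hybrid liver was 0.953 and 0.982.

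How a member was spread over the organs entered the rule through the liver level and the bounds on the brain and ovary ratios. The comparison of brain with ovary uses no liver library, but it uses the libraries on which those bounds were set. The genes with at least 1 CPM in hybrid liver were not held to the bounds. Their median hybrid liver level was 8.90 CPM, against 22.1 for the members. With both genotypes weighted equally, 129 of the 294 members tested were lower in brain than in ovary and 27 were higher, by at least 4-fold and with an adjusted p under 0.05 (edgeR quasi-likelihood test). Over all 24452 genes tested, 23% were lower and 24.1% higher. Among the genes with at least 1 CPM in hybrid liver, 21.2% were lower and 13.4% higher, beside 43.9% and 9.18% of the members tested. The median log2 difference, brain minus ovary, was -1.72 for the members, -0.53 for the genes with at least 1 CPM in hybrid liver and -0.11 for all genes tested. The 6 remaining members were too scarce in brain and ovary to be tested. Within each genotype ovary also led, with 112 members lower and 30 higher in the hybrids (21.5% and 25.5% of all genes tested) and 132 lower and 28 higher in the clone (22.4% and 25.7%). With library totals alone 111 members were lower and 31 higher (20.2% and 26.8% of all genes tested).

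Gene 103135633 had the largest difference toward ovary. In ovary it stood at 211, 190.3, 185 and 189 CPM in clone fish 3, 4, 11 and 12 and at 226, 222, 191 and 227 CPM in hybrids 4, 10, 12 and 13. In brain its means were 6.02 ± 3.57 CPM in the clone (n = 4) and 5.04 ± 1.16 in the hybrids (n = 6), a log2 difference of -5.46 (SE 0.23, edgeR adjusted p = 6.3e-14). Its liver level was 48.4 ± 9.03 CPM in the clone and 181 ± 74.1 in the hybrids, so hybrid liver came near the ovary level and clone liver did not. Gene 103152148 had 23.1 ± 1.01 and 17.1 ± 1.96 CPM in clone and hybrid ovary (n = 4 each) and 0.445 ± 0.286 and 0.661 ± 0.250 CPM in brain (log2 difference -5.44, SE 0.25, edgeR adjusted p = 2.5e-13), with 0.398 ± 0.0714 CPM in clone liver and 1.37 ± 0.483 in hybrid liver.

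A smaller group of members was brain-rich. Gene 103153790 had 136 ± 29.7 and 165 ± 11.7 CPM in clone and hybrid brain and 0.475 ± 0.379 and 0.302 ± 0.174 CPM in ovary (log2 difference 8.36, SE 0.30, edgeR adjusted p = 8.6e-15). In liver it stood at 1.77 ± 0.887 CPM in the clone and 5.46 ± 2.30 in the hybrids. Gene 103136135 had 163 ± 35.1 and 199 ± 18.9 CPM in brain and 0.639 ± 0.216 and 0.773 ± 0.125 CPM in ovary (log2 difference 7.74, SE 0.16, edgeR adjusted p = 4.6e-18). In liver it was at 11.9, 12.8, 8.67 and 10.8 CPM in clone fish 3, 4, 11 and 12 and from 52.4 through 64.0 to 104 CPM in the hybrids. The 27 brain-rich members had a median liver ratio of 4.48, the 129 ovary-rich members 3.70, and the 138 tested members not called at 4-fold 3.63. The 6 untested members had a median ratio of 8.54. These groups also differed in liver level, with median hybrid liver levels of 6.37, 22.4, 29.3 and 3.52 CPM in the same order. Among these groups the larger ratios were in those with the lower levels. This did not hold for a set that overlaps them, the 32 members higher in liver than in both brain and ovary. Their median ratio was 4.60 at a median hybrid liver level of 67.1 CPM. The liver ratio was itself used to choose the members.

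**Figure D4:**
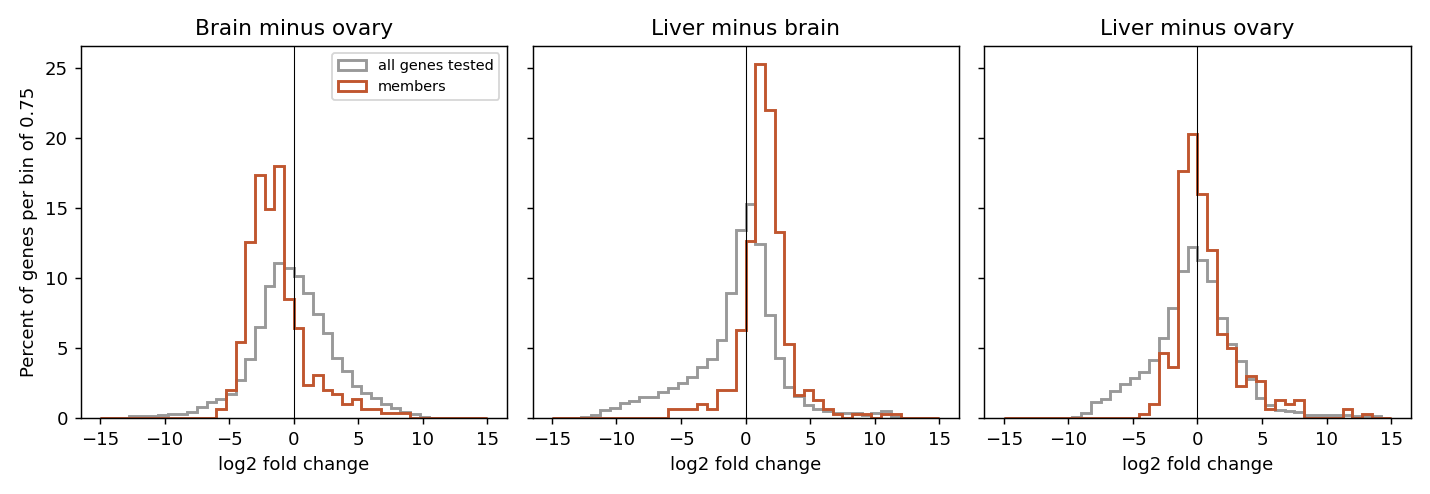
Distribution of log2 fold changes between organs, with both genotypes weighted equally and TMM scaling, for the members (orange) and all genes tested (grey), as percent of genes per bin. Members lie mostly on the ovary side of the brain minus ovary comparison (median -1.72), on the liver side of liver minus brain (median 1.43, but -0.46 with library totals alone), and around 0 in liver minus ovary (median 0.07, but -1.97 with totals alone).

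Comparisons of liver with another organ depend on how the libraries are scaled, and they share the liver libraries that the rule used. With TMM factors, which align the bulk of the genes, 100 members were higher in liver than in brain by at least 4-fold and 12 lower (edgeR, adjusted p under 0.05), beside 13.4% and 29.5% of all genes tested and 21% and 6.83% of those with at least 1 CPM in hybrid liver. With library totals alone, 21 members were higher and 40 lower (5.27% and 52.8% of all genes tested), and the median over all genes tested moved by -1.86 (log2). The members' median turned from 1.43 to -0.46, but it was 0.85 above that of genes with at least 1 CPM in hybrid liver with TMM and 0.84 above it with totals alone. Against ovary, 60 members were higher and 22 lower in liver with TMM (18.6% and 29.3% of all genes tested, 25.6% and 8.78% of those with at least 1 CPM in hybrid liver). With totals alone 30 were higher and 143 lower (6.69% and 56.7% of all genes tested), with a shift of all genes by -2.01. The members' shares were 10.0% and 47.7%, against 10.6% and 41.3% of genes with at least 1 CPM in hybrid liver. The members' median was 0.07 with TMM, -0.07 with DESeq2 size factors and -1.97 with totals alone. Less the median of genes with at least 1 CPM in hybrid liver it was -0.38 with TMM and -0.40 with totals alone.

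The liver values of a single genotype took part in the choice, so the organ comparisons within a genotype are a description. In the hybrids 200 members were at least 4-fold higher in liver than in brain and 8 lower (16.2% and 31.5% of all genes tested), and in the clone 33 were higher and 23 lower of the 295 tested (12% and 26.1%). Against ovary the numbers were 96 and 3 in the hybrids (17.5% and 31.1%) and 32 and 70 in the clone (20.6% and 27.8%), all with TMM factors. Relative to genes with at least 1 CPM in hybrid liver, the members' median log2 difference of liver minus brain was 1.74 in the hybrids and -0.03 in the clone. For liver minus ovary it was 0.65 in the hybrids and -1.38 in the clone.

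With both genotypes weighted equally and TMM factors, 32 of the 300 members were at least 4-fold higher in liver than in brain and than in ovary, beside 9.12% of all genes tested and 14% of those with at least 1 CPM in hybrid liver. By plain CPM the liver mean was at least 4 times both other organs for 24 members in the hybrids (8.00%, against 6.83% of genes with at least 1 CPM in hybrid liver) and for 7 in the clone (2.33%, against 5.58%). The 32 had a median liver ratio of 4.60 and a median hybrid liver level of 67.1 CPM. Genes 103133105 and 103134023 led them, with log2 differences from brain of 11.27 (SE 0.68, edgeR adjusted p = 2.6e-12) and 11.06 (SE 0.55, edgeR adjusted p = 1.1e-13). The rule used these liver libraries, and the genes named here were picked as extremes of the contrasts. The adjusted p values in this paragraph are therefore a description and not an independent test. At the other end were members that brain expressed strongly and liver hardly at all. Gene 103136206 had 0.576, 0.440, 0.213 and 0.0949 CPM in clone livers 3, 4, 11 and 12 and from 1.33 through 1.85 to 2.09 CPM in hybrid livers, with 109 ± 27.1 and 125 ± 8.89 CPM in clone and hybrid brain (log2 difference liver minus brain -5.37, SE 0.22, edgeR adjusted p = 5.8e-15). Gene 103153468 had 0.507, 0.301, 0.709 and 0.593 CPM in the clone livers and from 1.17 through 2.78 to 4.34 CPM in hybrid livers, with 147 ± 44.2 and 187 ± 26.9 CPM in brain (log2 difference -5.27, SE 0.21, edgeR adjusted p = 2.3e-15). Toward ovary, the liver levels of gene 103148004 were 9.47 ± 1.76 CPM in the hybrids (n = 6) and 3.04 ± 0.884 in the clone (n = 4), beside 430.9 ± 37.5 and 436 ± 23.5 CPM in hybrid and clone ovary (n = 4 each; log2 difference liver minus ovary -4.29, SE 0.18, edgeR adjusted p = 5.8e-14). For such genes both genotypes had liver levels far under those of the other organ. That every hybrid liver lay above every clone liver was required by the rule.

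By plain CPM, 220 of the 300 members had their highest mean in ovary in the clone (73.3%, against 48.8% of genes with at least 1 CPM in hybrid liver). Another 63 had it in brain (21.0%, against 37.4%) and 17 in liver (5.67%, against 13.8%). In the hybrids 195 had it in ovary (65.0%, against 49.9%), 41 in brain (13.7%, against 34.6%) and 64 in liver (21.3%, against 15.5%). Of the 64, 17 were highest in liver in the clone too, 24 were highest in brain in the clone and 23 in ovary. In the clone 46 members had a liver mean under 1 CPM (15.3%, against 3.25% of genes with at least 1 CPM in hybrid liver), and 5 of the 46 stood at 5 CPM or more in both brain and ovary of the clone (1.67% of the members, against 0.445%). A low clone liver level was part of what the rule chose. In both other organs of the hybrids 220 members were at 5 CPM or more (73.3%, against 74.7%), and 9 were under 1 CPM in both (3.00%, against 2.61%).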

How the data were processed

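The authors deposited raw read counts per gene for 28 libraries, without normalization. TopHat2, a spliced aligner, and featureCounts, a read counter, are named in the submitters' processing notes, without settings, and the genome build is not given in the sources used here. RNA was extracted with TRIzol and treated with DNase, and the TruSeq mRNA kit was used for the libraries, per the labels' protocols. Hybrid reads carry alleles of both parental species, which a reference can take up unequally, and reads of nearly identical gene copies may be divided or dropped. Strand handling is not given, so overlapping genes cannot be told apart.

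Columns were matched to samples by description, with 0 columns left unused. The members and lists were chosen with earlier results of these data known. Gene lists by symbol and cell type markers could not be used, as the table holds IDs only. Genes named by ID are, by rule, drawn from the 12 largest liver ratios (hybrid liver mean of at least 5 CPM), the 12 highest hybrid liver levels and the 3 extremes of each contrast and direction, with at most 2 IDs at a time. Organs were compared with edgeR 4.0.16 in R 4.3.3 (filterByExpr, TMM, robust quasi-likelihood test, Benjamini-Hochberg adjustment over all genes tested) on the libraries of both organs in 1 fit of 4 groups, with the genotypes weighted equally. Calls needed an adjusted p under 0.05 and, between organs, 4-fold. Hybrid livers 11 to 14 were compared with 4 and 10 in the same way without a fold minimum. The SE is the absolute log2 difference over the square root of F. Alternatives used DESeq2 1.42.0, other scaling, no filter, and fish left out. Tests were checked on simulated counts with a single mean level per gene across libraries, apart from a small set of changed genes. These counts held no shift of most genes between organs, so they did not check how liver was scaled against brain or ovary. Libraries of the same group always differed beyond sampling noise (lowest chi-square per degree of freedom 13.4). Organs of 1 fish are paired by animal. Deviations from group means correlated across genes with a median of 0.13 for the brain-liver pairs of a fish, 0.12 for brain with ovary and 0.05 for liver with ovary.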

Additional observations from a re-analysis of the deposited data

Results flagged for a closer look

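Each of the 6 groups of libraries was examined for 1 value far from the others, with Dixon's 95% critical value, for the members' summed share, for their median level and for 14 of the genes named by ID. Of the 96 groups examined 12 stood out. The limit is passed by about 1 in 20 groups of independent values with a normal spread. Genes with few or no reads lack such a spread, and the groups share libraries, so 1 in 20 is not the rate to compare with here. The median member was at 7.57 CPM in clone liver 3, against 4.39 to 4.88 in the other clone livers.

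Clone brain 11 stood apart for several genes. Gene 103140041 was at 98.5 CPM there, against 157 to 168 in the other clone brains, and gene 103136135 was at 111 CPM against 174 to 186. Gene 103135633 was at 11.4 CPM against 3.97 to 4.61, and gene 103138125 was at 0.0816 CPM with no count in the others. In the ovary of the same fish gene 103140041 was at 88.2 CPM, against 96.2 to 97.0. In clone brain 4 gene 103133105 was at 3.34 CPM, against 0.408 to 0.876. In clone ovary 4 gene 103135669 was at 0.0232 CPM, with no count in the others.

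In hybrid brain 11 gene 103135669 was at 1.93 CPM, against 0 to 0.0530 in the other hybrid brains, and gene 103152148 was at 1.13 CPM against 0.395 to 0.667. In hybrid brain 13 gene 103136135 was at 235 CPM, against 181 to 198. In hybrid ovary 12 gene 103135633 was at 191 CPM, against 222 to 227.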

How the results depend on the processing

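The rule found 446 genes, 726 with TMM factors and 675 with DESeq2 size factors, under which 295 and 297 of the 300 members still met it. These factors shifted the median liver difference, hybrid minus clone, by 0.24 and 0.20 on the log2 scale. With 1 fish left out it found 408 to 565 genes, and 284 to 296 members still met it. With hybrids 4 and 10 alone 217 members met it, with hybrids 11 to 14 alone 269, and 289 met it without clone brains 4 and 11. The libraries kept in each case had also chosen the members, so these numbers are not an independent test. Without a fold minimum, 238 members were higher and 28 lower in liver than in brain, beside 8360 and 11014 of all 23316 genes tested. In liver against ovary there were 130 and 108, beside 8528 and 11445 of 23055. In brain against ovary there were 55 and 225, beside 10586 and 11382 of 24452. With hybrid libraries only, 200 members were higher in liver than in brain, and 96 were higher and 3 lower than in ovary. With P. formosa libraries only, the numbers were 33 and 23 against brain and 32 and 70 against ovary. With library totals alone, an alternative chosen after seeing the data, as were hybrids 11 to 14 alone and the omission of clone brains 4 and 11, they were 21 and 40 against brain and 30 and 143 against ovary, and all genes shifted with them. With the fish as a replicate block no count of calls moved by over 1.5 times: 97 and 13 for liver against brain, 58 and 23 for liver against ovary, and 28 and 131 for brain against ovary. Over all genes tested the block gave 3126 and 6968 of 23316, 4200 and 6903 of 23055, and 5862 and 5762 of 24452. With 1 fish left out the counts were 89 to 104 and 11 to 14, 58 to 63 and 20 to 24, and 27 to 30 and 121 to 131, in the same order. Over all genes tested these fits gave 3038 to 3354 and 6809 to 7059, 4166 to 4401 and 6767 to 7082, and 5853 to 6264 and 5469 to 5703. For hybrid livers 11 to 14 against 4 and 10 they were 0 to 38 higher and 0 to 12 lower, and by the DESeq2 test 50 were higher, with 22 without hybrid 4 and 13 without hybrid 10, tried after seeing the data. The low ends of both edgeR ranges came from the fits without hybrid 4 or hybrid 10. Those fits, by edgeR or DESeq2, leave 1 library in a group, so no conclusion is drawn from their counts. No count over all genes is given beside the DESeq2 numbers without these fish. The cause of the changes between settings was not tested.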
